A study of Mus musculus with 2 samples.

Results

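The kinesins are the microtubule motors that the mouse genome names Kif and Kifc. Members were the protein-coding genes whose symbol is Kif followed by a number and at most 1 letter, together with Kifc1, Kifc2 and Kifc3, and 41 of the 43346 genes in both deposited gene tables met this rule. By textbook role 12 of them were placed with mitosis, 16 with transport along axons and dendrites, 6 with the cilium, 2 with microtubule depolymerisation outside that mitotic set, and 5 in none of these. RNA was measured in hindbrain, the hindmost part of the brain, from mouse embryos of strain B6NCrl at 15.5 days of development. The series held 1 group with 2 biological replicates and no treatment. Replicate 1 pooled the tissue of 78 embryos and replicate 2 that of 62, both sexes mixed in each, and each library was made from 10 ng of total RNA over 200 nt with spike-in RNAs. The gene tables held 40020322 estimated counts for replicate 1 and 43263959 for replicate 2.

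Kinesins turn ATP hydrolysis into steps along microtubules, mostly towards the plus end, which in an axon points away from the cell body. One set of family members builds and pulls the spindle and completes cell division, and its genes are switched on late in the cell cycle. Another set carries vesicles, mitochondria and other cargo down the processes of neurons, which have left the cell cycle.

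Levels are given as TPM, a length-corrected relative abundance scaled to the same total in each library, for each library in turn. Each library is a single pool, so the 2 values give the spread and no p-value was computed. The ratio between libraries is replicate 2 over replicate 1 of estimated counts after TMM scaling, on the log2 scale, with a 95% exact (Clopper-Pearson) interval that covers counting error only and not the spread between pools. The tissue is a mixture, so fewer cells of a type and less RNA per cell cannot be told apart.

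Promoters are shown because the mitotic members differed between the libraries in one direction. The sequences come from the reference genome, the same for both pools, and their part in that difference was not tested. RefSeq promoters on GRCm38.p6, each running from 250 bases before a transcription start to 50 after it, were matched by symbol for 32 members, with 36 promoters in all. CCAAT and the words TTTGAA and TTTAAA were searched on both strands. The first is the CCAAT box, and the other words are forms of the cell cycle genes homology region, or CHR, through which genes of late cell cycle are held silent in resting cells. The words do not overlap each other. The mitotic members were chosen by textbook role and CHR words are known from late cell cycle genes. The share of mitotic promoters with a CHR word is thus a description and not a test. A CHR word stood in 10 of 11 mitotic promoters, 1 of 13 transport promoters and 27.6% of all 32851 promoters. CCAAT stood in 7 of 11 mitotic promoters, 4 of 13 transport promoters and 37.4% of all. Both kinds stood in 7 of 11 mitotic promoters, 0 of 13 transport promoters and 10.7% of all. The 13 transport promoters belong to 11 genes, 2 of the 4 with CCAAT being Kif1b promoters that hold the same sites, so by gene CCAAT stood in 3 of 11. Kif18a was the mitotic promoter with no CHR word, and the 1 transport promoter with one was an inner promoter of Kif1a.

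Some of these promoters are not at the start of the transcripts measured here. That of Kif2c lies 3867 nt from the start of Kif2c-201, its leading coding transcript, and transcripts starting within 250 nt of it held 2.44% and 1.44% of the gene's TPM. That of Kif4 lies 328 nt from the start of Kif4-201. The inner Kif1a promoter lies 19342 nt from the start of Kif1a-204, and transcripts starting near it held 0.187% and 0.123% of the gene's TPM. Counting only promoters within 250 nt of the start of the leading long coding transcript, a limit set after seeing the data, a CHR word stood in 8 of 9 mitotic promoters and 0 of 11 transport promoters. CCAAT then stood in 6 of 9 and 4 of 11. The Kif17 promoter also fell outside this limit, although transcripts starting near it held 66.1% and 71.5% of its TPM.

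The 100 bases from 70 before the start to 30 after it are shown for 8 mitotic members, on the gene's own strand, with each word found in capitals (ATTGG and TTCAAA are CCAAT and TTTGAA on the opposite strand). They were chosen to show how close the words stand to the start, and the window was set after the hits had been seen. All 8 lie within 250 nt of the start of the leading long coding transcript. Kif18a is included as a case with no word in the window.
Kif22, chr7:127042391-127042490, minus strand: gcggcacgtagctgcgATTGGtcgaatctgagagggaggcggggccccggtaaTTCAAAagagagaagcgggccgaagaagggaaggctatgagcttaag
Kif11, chr19:37376312-37376411, plus strand: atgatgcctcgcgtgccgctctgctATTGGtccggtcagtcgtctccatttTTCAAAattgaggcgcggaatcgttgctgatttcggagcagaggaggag
Kif23, chr9:61946770-61946869, minus strand: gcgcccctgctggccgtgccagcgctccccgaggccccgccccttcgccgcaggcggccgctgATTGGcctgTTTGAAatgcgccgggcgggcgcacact
Kifc1, chr17:33890604-33890703, minus strand: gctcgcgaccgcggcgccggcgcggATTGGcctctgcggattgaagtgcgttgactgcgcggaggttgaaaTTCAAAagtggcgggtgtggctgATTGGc
Kif18b, chr11:102925095-102925194, minus strand: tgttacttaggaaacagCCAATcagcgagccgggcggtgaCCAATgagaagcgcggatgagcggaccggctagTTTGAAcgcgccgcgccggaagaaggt
Kif20b, chr19:34922288-34922387, plus strand: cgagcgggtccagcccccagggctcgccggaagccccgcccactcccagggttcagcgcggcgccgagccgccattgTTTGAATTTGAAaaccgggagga
Kif15, chr9:122951011-122951110, plus strand: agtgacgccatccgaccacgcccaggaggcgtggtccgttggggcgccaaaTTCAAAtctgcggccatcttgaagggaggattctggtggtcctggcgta
Kif18a, chr2:109280668-109280767, plus strand: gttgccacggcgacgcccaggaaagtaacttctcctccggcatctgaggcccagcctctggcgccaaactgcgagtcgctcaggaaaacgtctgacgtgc

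A CHR word lay in this window in 9 of 11 mitotic promoters, against 8.71% of all promoters and 1 of 13 transport promoters, the inner promoter of Kif1a. CCAAT lay there in 6 of 11, against 16.1% of all and 2 of 13 transport promoters. Because the window was set after these hits had been seen, the contrast with all promoters is a description and not a test. The 9 include Kif4. Among promoters within 250 nt of the leading long coding start, the CHR counts in the window were 8 of 9 mitotic and 0 of 11 transport. Those of CCAAT were 5 of 9 and 2 of 11. In Kif20b the word TTTGAA occurred as 2 copies end to end.

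The same window is shown for 3 transport members of high level. Kif3a held 1 CCAAT, and Kif5c and the outer of the Kif1a promoters held no word in this window.
Kif5c, chr2:49619216-49619315, plus strand: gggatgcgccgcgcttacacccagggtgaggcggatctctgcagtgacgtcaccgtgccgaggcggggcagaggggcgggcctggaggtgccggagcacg
Kif3a, chr11:53567299-53567398, plus strand: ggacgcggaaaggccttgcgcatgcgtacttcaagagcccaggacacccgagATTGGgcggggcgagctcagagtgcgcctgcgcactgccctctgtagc
Kif1a, chr1:93101845-93101944, minus strand: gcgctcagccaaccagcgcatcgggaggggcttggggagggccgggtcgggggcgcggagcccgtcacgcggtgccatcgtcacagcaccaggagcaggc

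The median G+C content of the 300-base promoters was 60.7% for the mitotic members, 69.3% for the transport members and 52.7% for all promoters. The part of base composition in these counts was not tested. A match to these letters is a description of the sequence and not evidence of binding.

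Most of the family was present. Of the 41 members, 36 reached 1 TPM in both libraries, against 63.1% of all nuclear protein-coding genes. All 16 transport members, 11 of 12 mitotic, 5 of 6 cilium, 1 of 2 depolymerase and 3 of 5 other members did so. The 5 that did not were Kif14, Kif19a, Kif2b, Kif12 and Kif28. Kif14 lay close to the limit, at 1.10 and 0.76 TPM from 176 and 154 counts. On posterior mean TPM, a second estimate in the deposited tables, 37 members reached 1 TPM in both libraries, 12 of them mitotic. Kif2b had 0 counts in both libraries, and a count of 0 (up to 3 counts) allows at most 0.0540 TPM in replicate 1 and 0.0512 TPM in replicate 2.

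Transport members were far more abundant than mitotic ones. Their summed level was 1247.89 TPM in replicate 1 and 1300.17 in replicate 2, and the mitotic sum was 95.4 and 76.86. The mitotic sum was thus 7.64% of the transport sum in replicate 1 and 5.91% in replicate 2. By the roles chosen, the mitotic sum leaves out the depolymerase Kif2a, at 61.97 and 56.11 TPM. The median transport member stood at 42.0 ± 3.16 TPM (SD of the 2 library medians, n = 2) and the median mitotic member at 5.30 ± 1.07 TPM, while the median nuclear protein-coding gene stood at 5.72 ± 0.0212 TPM. The roles still overlapped: 10 of 16 transport members lay above every mitotic member in both libraries, and the other 6 lay under Kif22, the highest mitotic member.

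**Figure D1:**
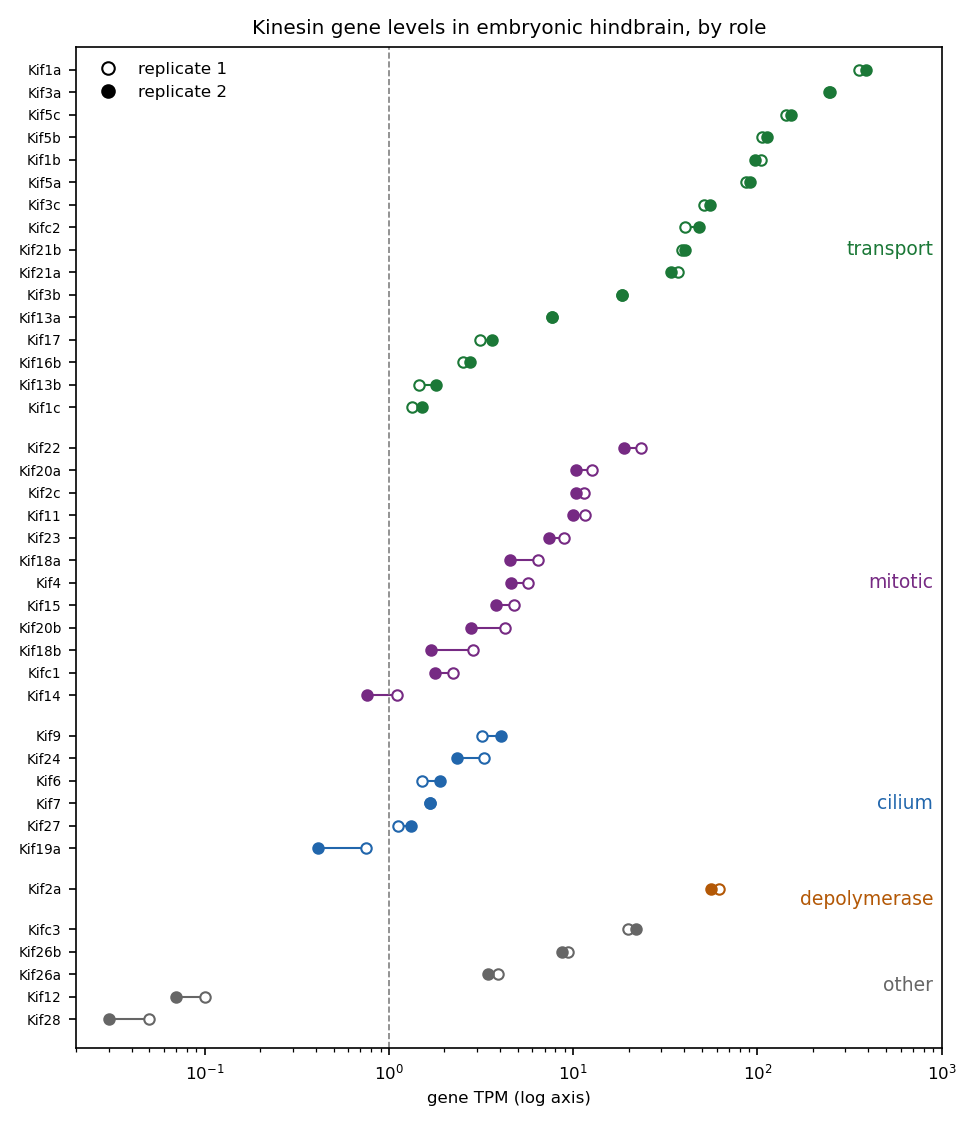
Gene TPM (log axis) of the 40 members with any signal, in replicate 1 (open circles) and replicate 2 (filled circles), grouped by role; the dashed line marks 1 TPM and Kif2b, at 0, is not drawn. Transport members reach 388.99 TPM, and in every mitotic row the filled circle lies to the left of the open one.

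The transport motors were led by 3 subfamilies. Kinesin-1, the conventional motor of fast axonal transport, is encoded by Kif5a, Kif5b and Kif5c. Kif5c (chr2:49619298-49774778 on GRCm38, plus strand) measured 143.13 TPM in replicate 1 and 152.13 in replicate 2. Kif5b, the copy found in most cell types, measured 105.98 and 113.06 TPM, and Kif5a, the neuron-enriched copy linked to axon disease, 86.99 and 90.87 TPM. The order Kif5c, Kif5b, Kif5a was the same in both libraries with no overlap of values, and the shares of the subfamily sum were 42.7%, 31.6% and 25.7%.

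Kinesin-2 pairs Kif3a with Kif3b or Kif3c and moves both vesicles and the trains that build cilia. Kif3a (chr11:53567379-53601967, plus strand) measured 246.23 and 244.40 TPM, Kif3c 51.26 and 55.30, and Kif3b 18.46 and 18.43. Kif3a therefore held 77.4% of the sum of Kif3a, Kif3b and Kif3c. Kif17, a kinesin-2 motor that works without Kif3a, measured 3.10 and 3.64 TPM.

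The Kif1 motors carry precursors of synaptic vesicles. Kif1a (chr1:93015464-93101951, minus strand) had the highest gene TPM of the family, 357.88 and 388.99. Kif1b, which also has a form that moves mitochondria, measured 105.16 and 97.40 TPM, and Kif1c, known from many tissues, 1.33 and 1.51. The group spans a wide range, with Kif1c the lowest transport member.

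The remaining transport motors lay below Kif1a, Kif1b, Kif3a, Kif3c and the Kif5 genes in both libraries. Kifc2, a minus-end-directed motor of neurons, measured 40.44 and 48.07 TPM. Kif21b and Kif21a, which also restrain microtubule growth, measured 39.12 and 40.42 TPM and 37.17 and 33.75 TPM in that order. The endosome and membrane cargo motors came last: Kif13a measured 7.67 and 7.65 TPM, Kif16b 2.52 and 2.76, and Kif13b 1.45 and 1.79. Of the 15 neighbouring pairs in the transport order, 1 pair overlapped in its library values, Kif13b with Kif1c.

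Part of this order rested on short annotated transcripts. Gene TPM adds the TPM of every transcript of a gene, and each short transcript counts fully. The TPM was therefore also summed over long coding transcripts only, those annotated in GENCODE M21 as protein-coding with 500 or more codons, a choice made after seeing the data. On this scale Kif5c was highest, at 142.51 and 151.68 TPM, followed by Kif3a at 121.35 and 127.85 and Kif1a at 109.40 and 118.74. Long coding transcripts held 30.5% of the TPM of Kif1a, 50.8% of Kif3a and 99.6% of Kif5c. The share of Kif3a in the sum of Kif3a, Kif3b and Kif3c was 63.5% on this scale, against 77.4% on gene TPM.

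For Kif1a the leading transcript was Kif1a-206, a 528 nt coding fragment of 5 exons (chr1:93077724-93101834) whose annotation is open at its 3′ end. It held 174.83 TPM in replicate 1 and 190.45 in replicate 2, or 48.9% and 49.0% of the gene. Of its bases 86.7% lie in exons of the long coding transcripts, so reads from those bases match both. The 8206 nt coding form Kif1a-204 held 73.4 and 82.17 TPM. Kif1a-208, a 570 nt transcript without a coding frame, held 72.57 and 79.04 TPM, and all its bases lie in long coding exons.

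For Kif3a the leader was Kif3a-206, a 770 nt transcript annotated for nonsense-mediated decay, with 87.77 and 81.51 TPM, and 97.4% of its bases lie in long coding exons. For Kif1b the leader was the 10233 nt coding Kif1b-203, at 57.53 and 59.36 TPM, and a 587 nt transcript without a coding frame, Kif1b-205, added 30.01 and 23.38 TPM. In Kif5b the 2006 nt Kif5b-202, a coding transcript open at its 3′ end, held 60.66 and 64.34 TPM against 38.95 and 39.52 for the 6032 nt full form Kif5b-201. Kif5c was the opposite case, with 99.6% and 99.7% of its TPM in the 6856 nt Kif5c-201.

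Kif21b was the member whose leader differed between libraries. The coding Kif21b-201 of 9115 nt held 21.8 TPM in replicate 1 and 17.84 in replicate 2, and Kif21b-204 of 9254 nt, annotated for nonsense-mediated decay, 14.74 and 20.75. Of the bases of Kif21b-204 98.1% lie in exons of the coding form. Among the 12 members with 5 TPM or more and several annotated transcripts, the leader held under 60% in a library in 7, and in 4 it was not a long coding transcript in at least 1 library. Over the 3868 nuclear protein-coding genes that met the same limits and had a long coding transcript, these shares were 53.2% and 20.2%, and the leader differed between libraries in 7.6%. The 7 were Kif1a, Kif1b, Kif3a, Kif5b, Kif21b, Kif2a and the mitotic Kif20a, whose leader Kif20a-201 held 61.6% and 55.6%. The 4 were Kif1a, Kif3a, Kif21b and Kif2a.

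**Figure D2:**
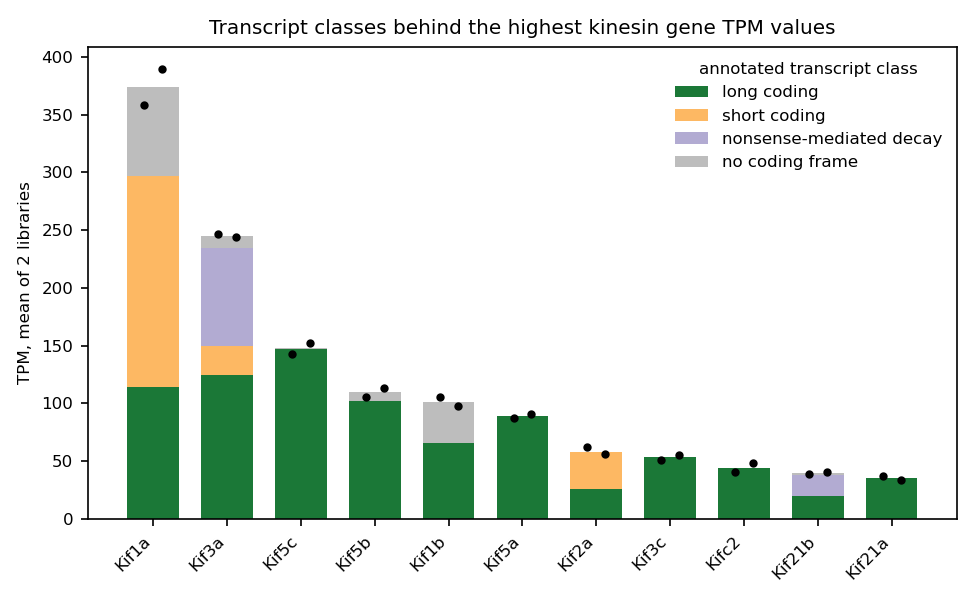
Mean TPM of the 2 libraries, stacked by annotated transcript class, for the members with a mean gene TPM of at least 30; black points are the gene TPM of replicate 1 (left) and replicate 2 (right). Long coding transcripts hold 30.5% of Kif1a and 99.6% of Kif5c, so Kif5c is highest in that class.

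Between the libraries the transport motors differed little. Of the 16, 12 were higher and 4 lower in replicate 2, with a median log2 ratio of 0.04, and 0 passed 1.5-fold in either direction. Over all 17048 genes compared, those with a mean count of 20 or more, 2.23% were past 1.5-fold higher, 4.22% past 1.5-fold lower, and the median was 0.00. Kifc2 had a log2 ratio of 0.22 (interval 0.15 to 0.29) and Kif21a one of -0.17 (interval -0.22 to -0.12). With scaling to the spike-ins, which shifts the median of all genes to -0.11, the transport median became -0.07 and 13 of 16 were lower.

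The mitotic motors were lower in replicate 2 without exception. All 12 were compared and 12 of 12 had a lower scaled count in replicate 2, against 49.5% of all genes compared and 52% of the 6784 genes whose mean counts lay within the mitotic range. The median log2 ratio was -0.34 under TMM scaling and -0.45 with the spike-ins, and 10 of the 12 intervals lay wholly below 0. Of all genes compared 18.5% had such an interval, and the share was also 18.5% among genes in the mitotic range of counts. Of the 16 transport intervals 7 lay wholly above 0, against 19.6% of all genes, 2 lay wholly below and 7 spanned 0. Kif18b and Kif20b were past 1.5-fold lower. Counted on long coding transcripts alone, 10 of 12 were lower. These counts depend on the roles chosen. Kif2a, placed with the depolymerases and not in the mitotic set, had a log2 ratio of 0.00.

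The spindle builders are described first. Kif11, the motor that slides spindle poles apart, measured 11.65 TPM in replicate 1 and 10.01 in replicate 2, with a log2 ratio of -0.25 (interval -0.36 to -0.14). Kif15, which can stand in for Kif11, measured 4.78 and 3.82 TPM, with a log2 ratio of -0.35 (interval -0.53 to -0.18). Kifc1, a minus-end motor that gathers spindle poles, measured 2.23 and 1.78 TPM, and its log2 ratio of -0.11 had an interval from -0.52 to 0.30 that spanned 0. Of the 50-base words in Kifc1 transcripts 39.7% also occur in other genes, most of them in the near copy Kifc5b, so its value is uncertain.

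Motors that act on chromosomes and microtubule ends followed. Kif22 (chr7:127027729-127042471, minus strand), a chromokinesin that pushes chromosome arms, was the highest mitotic member at 23.32 and 18.76 TPM, with a log2 ratio of -0.34 (interval -0.47 to -0.22). Kif4, another chromokinesin, measured 5.66 and 4.57 TPM, with a log2 ratio of -0.39. Kif2c, which takes microtubules apart at the kinetochore, measured 11.48 and 10.41 TPM and had a log2 ratio of -0.19 (interval -0.34 to -0.05). Kif18a, which limits chromosome movement by dampening kinetochore microtubules, measured 6.44 and 4.51 TPM, with a log2 ratio of -0.51. Kif18b (chr11:102905529-102925124, minus strand), which shortens astral microtubules, measured 2.85 and 1.70 TPM, and its log2 ratio of -0.67 (interval -1.02 to -0.33) was the lowest of the set.

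The motors of cell separation were lower as well. Kif20a, which brings the chromosomal passenger complex to the midzone, measured 12.67 and 10.32 TPM. Kif23, the motor subunit of centralspindlin, measured 8.96 and 7.43 TPM, and their log2 ratios were -0.33 and -0.30. Kif20b (chr19:34922361-34975745, plus strand), known for its part in abscission of neural progenitors, measured 4.26 and 2.79 TPM, with a log2 ratio of -0.64 (interval -0.83 to -0.46). Kif14 measured 1.10 and 0.76 TPM, and its interval of -0.62 to 0.02 included 0. Kif14 and Kifc1 were the members not lower on long coding transcripts, Kif14 at 0.49 and 0.55 TPM and Kifc1 at 1.35 and 1.43.

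In the order of mitotic levels 7 of 11 neighbouring pairs overlapped in their library values, a spread that includes the shift shared by all mitotic members. Within each library, 7 of the 11 pairs kept the same order, and the pairs that did not were Kif20a with Kif2c, Kif2c with Kif11, Kif18a with Kif4, and Kif18b with Kifc1. Kif20a shares 1271 nt of exon with Cdc23 and Kif4 832 nt with Pdzd11, each on the opposite strand. Strand use in counting is not given, so reads of these pairs may have been divided between the genes.

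**Figure D3:**
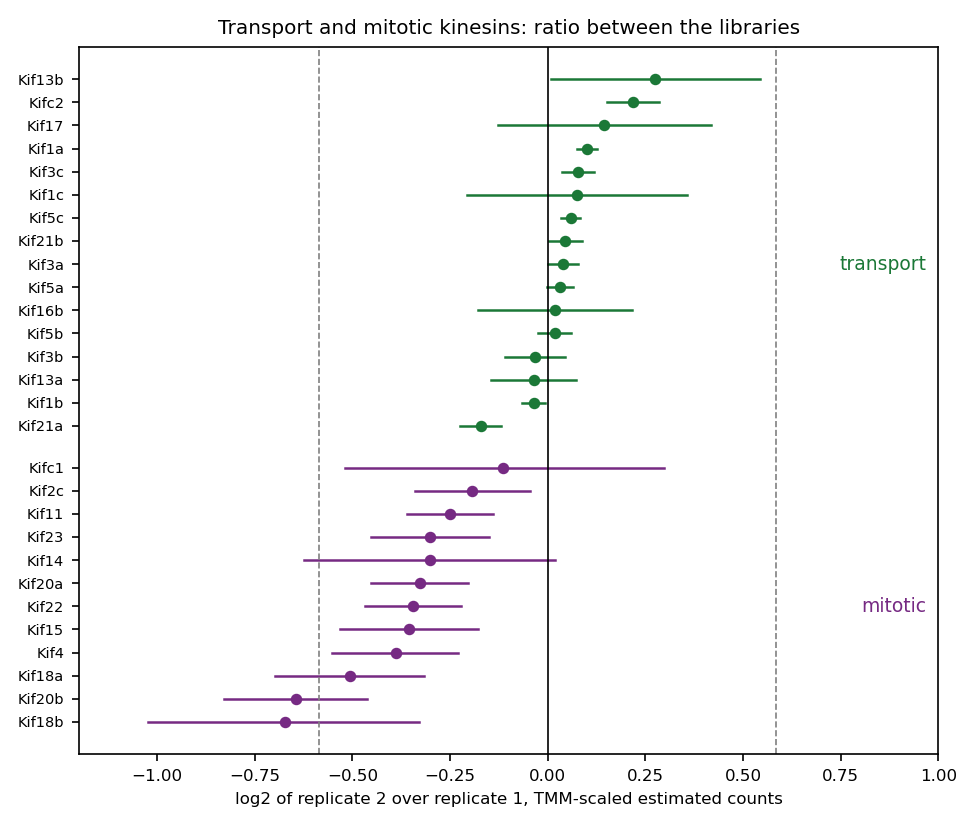
Log2 of replicate 2 over replicate 1 (TMM-scaled estimated counts) for the transport and mitotic members, with 95% exact intervals for counting error; dashed lines mark 1.5-fold. All 12 mitotic points lie left of 0 and the 16 transport points lie between -0.17 and 0.27.

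Genes that work with each set were counted from lists drawn up with earlier results on these data known. Of 20 partners of the mitotic motors 20 were detected and 20 were lower in replicate 2, with a median log2 ratio of -0.27 and 1 past 1.5-fold. Over all genes compared 49.5% were lower and 4.22% past 1.5-fold lower, and 63.1% of nuclear protein-coding genes were detected. The highest were Cdk1, the kinase that starts mitosis, at 79.15 and 62.28 TPM, Racgap1, the partner of Kif23 in centralspindlin, at 53.62 and 51 TPM, Ccnb1, a cyclin of Cdk1, at 49.77 and 39.72 TPM, and Top2a, which untangles chromosomes, at 45.28 and 35.04 TPM. Mki67, which coats mitotic chromosomes, was the one past 1.5-fold, at 7.99 and 5.18 TPM. The mitotic motors and these partners share the libraries, so their ratios are not separate evidence.

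Of 20 cargo adaptors and light chains of the transport motors all 20 were detected, 17 were higher and 3 lower in replicate 2, and the median log2 ratio was 0.09. Over all genes compared 49.5% were lower and 2.23% past 1.5-fold higher, and 63.1% of nuclear protein-coding genes were detected. The highest were Klc1, a light chain of kinesin-1, at 463.1 and 508.53 TPM, Fez1, an adaptor of kinesin-1, at 427.08 and 444.36 TPM, Arl8a, a small GTPase on lysosomes and vesicle precursors, at 275.45 and 338.14 TPM, and Hap1, a huntingtin-binding adaptor, at 202.53 and 206.8 TPM. Klc3, a light chain of low level here, was past 1.5-fold higher, at 1.04 and 1.83 TPM. Dynein and dynactin, the motor complex that runs towards the minus end, had all 19 listed genes detected and a median log2 ratio of -0.02. Its highest genes were Dynll1 at 1048.27 and 1007.25 TPM and Dynlrb1 at 599.25 and 614.78 TPM.

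**Figure D4:**
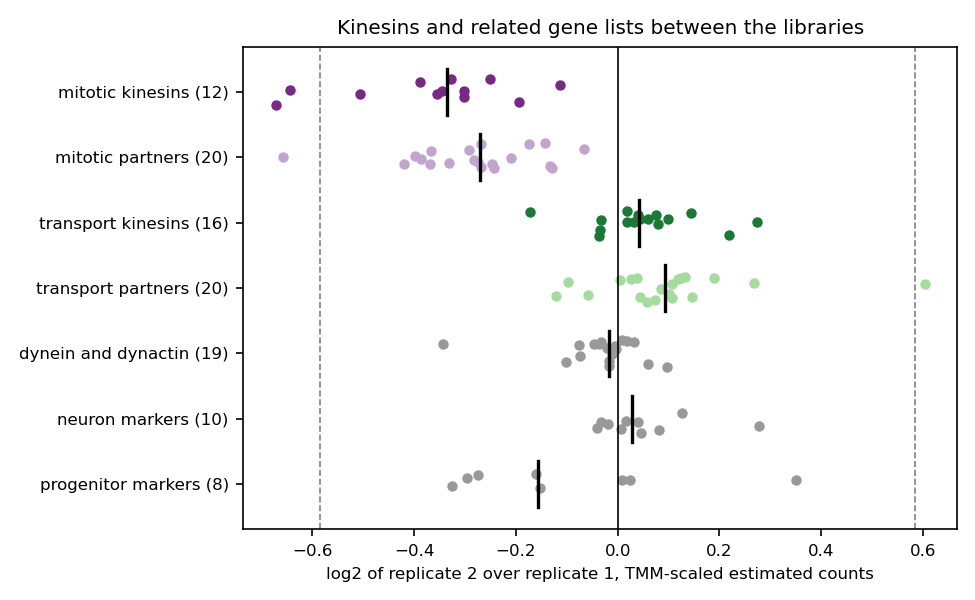
Log2 of replicate 2 over replicate 1 (TMM-scaled estimated counts) for each gene of 7 lists, with the number of genes in parentheses and the median as a black bar; dashed lines mark 1.5-fold and vertical scatter carries no value. The medians of the mitotic members and partners are -0.34 and -0.27, and those of the transport members and partners 0.04 and 0.09.

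Markers of other cell types differed between the pools too. Beside the counts that follow, 49.5% of all genes compared were lower in replicate 2 and 63.1% of nuclear protein-coding genes were detected. All 10 neuron markers were detected, with a summed level of 5336.90 TPM in replicate 1 and 5620.31 in replicate 2 and a median log2 ratio of 0.03. All 8 progenitor markers were detected, with a median of -0.16 and 5 of 8 lower in replicate 2. Their sums of 2423.24 and 2424.27 TPM were carried by Fabp7, which binds fatty acids in radial glia, at 1746.03 and 1814.58 TPM. Lower in replicate 2 were 6 of 6 meningeal markers (540.03 and 442.15 TPM), 6 of 6 microglial markers (132.13 and 106.40 TPM) and 5 of 7 erythroid markers (15775.90 and 12389.80 TPM). Endothelial markers, 5 of 5 detected, summed to 146.81 and 144.06 TPM. Higher were 5 of 5 choroid plexus markers (910.69 and 1247.89 TPM) and 7 of 8 motile cilium markers (36.80 and 47.76 TPM). No marker of these lists was at 0 in either library, and their part in the kinesin ratios was not tested.

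The label hindbrain was checked in the same way. Beside its counts, 49.5% of all genes compared were lower, 4.22% past 1.5-fold lower and 2.23% past 1.5-fold higher. The detected share of nuclear protein-coding genes was 63.1%. Of 12 hindbrain markers 11 were detected, with sums of 329.87 and 369.53 TPM, and 9 were higher and 3 lower in replicate 2. Past 1.5-fold lower were En1, at 6.37 and 3.03 TPM, and En2, at 1.07 and 0.48 TPM, factors of the midbrain-hindbrain boundary. Of 8 forebrain markers 1 was detected, with sums of 53.82 and 23.50 TPM. Lhx2, which is also expressed in some hindbrain neurons, made up most of the forebrain sum in replicate 1, at 50.71 and 9.96 TPM. Of these 8 markers 5 were past 1.5-fold higher and 1 lower in replicate 2, and the part of this difference in the kinesin values was not tested.

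The cilium members were low and did not move as a set, with 3 higher and 3 lower in replicate 2. Kif9, a motor of motile cilia, measured 3.18 and 4.07 TPM, with a log2 ratio of 0.33 (interval 0.09 to 0.58). Kif24, which holds back cilium growth in cycling cells, measured 3.28 and 2.34 TPM, with a ratio of -0.44 (interval -0.73 to -0.15). Kif6, known from ependymal cilia, measured 1.51 and 1.88 TPM, Kif7, a regulator of hedgehog signalling at the cilium tip, 1.67 and 1.67, and Kif27, its close relative, 1.12 and 1.32. On long coding transcripts alone Kif24 measured 1.28 and 0.94 TPM and Kif6 0.56 and 0.76. On that scale 34 of the 41 members reached 1 TPM in both libraries. Kif19a, which sets the length of motile cilia, had 45 counts in replicate 1 and 20 in replicate 2, or 0.75 and 0.41 TPM, and its ratio of -1.26 (interval -2.12 to -0.49) put it past 1.5-fold lower, with Kif18b and Kif20b. Among the 38 members compared 3 were thus past 1.5-fold lower and 0 higher, against 4.22% and 2.23% of all genes compared. Kif7 shares 877 nt of exon with the opposite-strand 9330171B17Rik.

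Kif2a (chr13:106958996-107022126, minus strand), a depolymerase that prunes axon branches, measured 61.97 and 56.11 gene TPM with a log2 count ratio of 0.00. Its leader was Kif2a-205, a 288 nt coding fragment of 4 exons (chr13:106987327-106993920) open at both ends, with 35.23 and 28.81 TPM. All its bases lie in exons of the long coding transcripts, which held 26.08 and 26.54 TPM, and on that scale Kif2a ranked 10th rather than 7th. Kif2a also shares 1229 nt of exon with Dimt1 on the opposite strand.

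Of the other members Kifc3, a minus-end motor of cell junctions, measured 19.88 and 21.90 TPM. Kif26b and Kif26a, atypical kinesins that signal rather than walk, measured 9.34 and 8.66 TPM and 3.89 and 3.46 TPM. Kif12, an epithelial kinesin, measured 0.10 and 0.07 TPM and Kif28 0.05 and 0.03, both from at most 4 counts. Kif3c, among the transport members, shares 2617 nt with the antisense gene 1110002L01Rik.

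Kinesin genes with other names lie outside the rule. Cenpe, the kinetochore motor of mitosis, measured 5.56 and 3.81 TPM, with a log2 ratio of -0.57. Stard9, a centrosomal kinesin of mitosis, measured 6.55 and 6.27 TPM with a ratio of -0.16. Kifc5b, the near copy of Kifc1, measured 0.86 and 0.97 TPM with a ratio of 0.13.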

How the data were processed

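Per the file headers, the authors' gene and transcript tables give estimated counts without normalization. The authors' TPM is corrected for length and scaled over everything in a file, including spike-ins. The authors' FPKM was used as an alternative only. The deposited upper limit of the TPM interval, treated as a signal, and the lower limit gave the uncertainty of TPM. Build mm10 is named in the labels; aligner, quantifier and strand use are not given in the sources. Annotation was GENCODE M21 on GRCm38 (the mm10 assembly), joined by gene identifier without version, and 42462 of 43346 genes matched and 884 did not. Library sizes left out the spike-ins, which took 2.86% and 3.09% of counts.

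TMM factors came from edgeR 4.0.16 (R 4.3.3). Log2 ratios used a prior count of 0.5 and genes averaging 20 counts or more, and the step was tested on simulated data. Size factors from DESeq2 1.42.0, totals of libraries or spike-ins, other count minimums and TPM ratios served as alternatives. The libraries differed by more than sampling noise (chi-square per degree of freedom 12.4 over 17048 genes). A level of about 1 TPM (within 0.1) corresponded to 53.0 counts in the median coding gene of replicate 1, and to 59.3 in that of replicate 2.

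Members, their roles and the gene lists were chosen with earlier results of these data known. By rule, the text names every member, up to 4 of the highest genes in each partner list and those past 1.5-fold, transcripts of members whose leader held under 60% or differed, and Cenpe, Stard9 and Kifc5b. Lhx2, Fabp7, En1, En2 and genes sharing exons with members were named after their values were seen. Some genes that share exons with members are not reported here.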

Additional observations from a re-analysis of the deposited data

How the results depend on the processing

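With 2 pools there is no error beyond the pair of values, and short transcripts, opposite-strand exons and low counts (Kif14, Kifc1, Kif18b, Kif19a) limit what can be told. The transport median log2 ratio reversed to -0.072 with spike-in totals, with 13 of 16 lower, since that scaling moves all genes by -0.11. It was 0.090 with a TPM pseudocount of 1 and 0.091 with one of 0.1, and the cause was not tested. By construction a pseudocount of 1 shrinks the log2 ratios of members of low TPM. It left 0 mitotic members past 1.5-fold, against 2 with one of 0.1. The mitotic sum was 6.76% of the transport sum of mean TPM, 5.48% on counts, 12.6% as a ratio of medians and 10.0% on long coding transcripts, which were chosen after seeing the data. By construction of the scale or list, the mitotic median became 6.74 on TPM over coding genes and 3.29 on FPKM, and the transport median 53.4, 26.0 and, for 8 core motors, 105.4. A gene minimum of 1 TPM gave 24 members with several transcripts, 13 leaders under 60% and 3 that differed.

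Leaving out a replicate gave 36 to 37 members detected, 11 to 12 of them mitotic and 16 transport, a mitotic share of 5.91% to 7.64%, mitotic medians of 4.54 to 6.05 TPM and transport medians of 39.8 to 44.2 TPM. It gave 12 to 14 members with several transcripts, 6 leaders under 60% and 3 to 4 leaders not long coding. All 12 mitotic members were lower under each scaling, count minimum and TPM ratio, and 10 on long coding transcripts. Leaving out a library leaves no ratio between libraries. No paired analysis was possible because the series has 1 group.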
